A study of Homo sapiens with 2 samples.

Results

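The 52 genes described here encode the netrin, slit and semaphorin guidance cues and their receptors: netrins and netrin-G proteins, DCC, neogenin, DSCAM and the UNC5 family, slits and roundabouts, semaphorins, plexins, neuropilins and repulsive guidance molecules. They were examined for sites bound by NUSAP1, a nucleolar and spindle-associated protein, in AsPC1 cells, an established line from a human pancreatic ductal adenocarcinoma. The families were selected on 1 measured value, the strongest promoter peak of the deposited peak list, which lies at the netrin receptor gene UNC5B; the other members were listed by family. All 52 were found among the 19821 protein-coding genes that the RefSeq table places on chromosomes 1 to 22 and X of build hg38.

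Chromatin fixed with formaldehyde and sheared by sonication was precipitated with an antibody to NUSAP1 in 1 library (chromatin immunoprecipitation with sequencing, ChIP-seq), and 1 library of input chromatin was made without antibody from the same line, for which the labels name no treatment. The peak list of the precipitate was analysed. It gives positions and no expression levels, so the label of the cells was not checked against marker genes. With 1 library there is no replicate error, and the only test of a single site is the q-value of the authors' peak caller.

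Guidance cues are secreted or membrane-bound ligands that steer growing axons and migrating cells. Netrins attract through DCC and neogenin and repel through UNC5 receptors, slits repel through roundabouts, and semaphorins act through plexins, with neuropilins as co-receptors for the secreted class. The same ligands and receptors regulate vessel growth, epithelial organisation and cell survival, and genes of the slit and roundabout pathway are known to be altered in pancreatic ductal adenocarcinoma.

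A summit is the highest point of a peak, and it was assigned to a gene when it lay in the gene body or within 5 kb of it. Of the 9043 summits in the list, 29 lay at 16 of the 52 guidance genes. One of them, at UNC5B, rested on 24 immunoprecipitated fragments, and the other 28 rested on 4 to 8. Beyond UNC5B no member had a summit with q under 0.05, a limit that 0.222% of all protein-coding genes passed. The members with a summit were mostly the long genes, and they were about as many as among protein-coding genes of the same length. Counted by summits per gene, the members of 300 kb and over held fewer than genes of that length, and those of 100 to 300 kb more.

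UNC5B (gene ID 219699) encodes a netrin receptor that mediates repulsion and belongs to the dependence receptors, which promote cell death when their ligand is missing. Its peak covered positions 71212234 to 71212631 of chromosome 10, with the summit at 71212447, 123 bp before the gene (71212570 to 71302864), on the side where its transcription begins. The last 62 bp of the peak lay inside the gene. At the summit 24 fragments stood over a background expectation of 1.19, a fold enrichment of 11.4 (p 1.58e-24, q 2.23e-18). This was the highest fold of all 9043 summits, ahead of 10.4, and ranked 19 by q and 81 by number of fragments.

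These values led to the choice of the families and are given as a description. Among summits at other protein-coding genes whose background was under 3 times the lowest of the list, the largest number of fragments was 13. The background at UNC5B was 1.68 times the lowest value, 0.708. The peak was 398 bp wide, against a median of 199 bp over the list and 244 bp over the peaks at members. A peak of 5 fragments in NTN1 was nearly as wide, at 376 bp. The UNC5B peak stood alone: the next summit below was 78.6 kb away and the next above 107 kb away. The antisense gene UNC5B-AS1 (71217224 to 71218228), a long non-coding RNA gene within UNC5B, starts 5.78 kb from the summit.

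**Figure D1:**
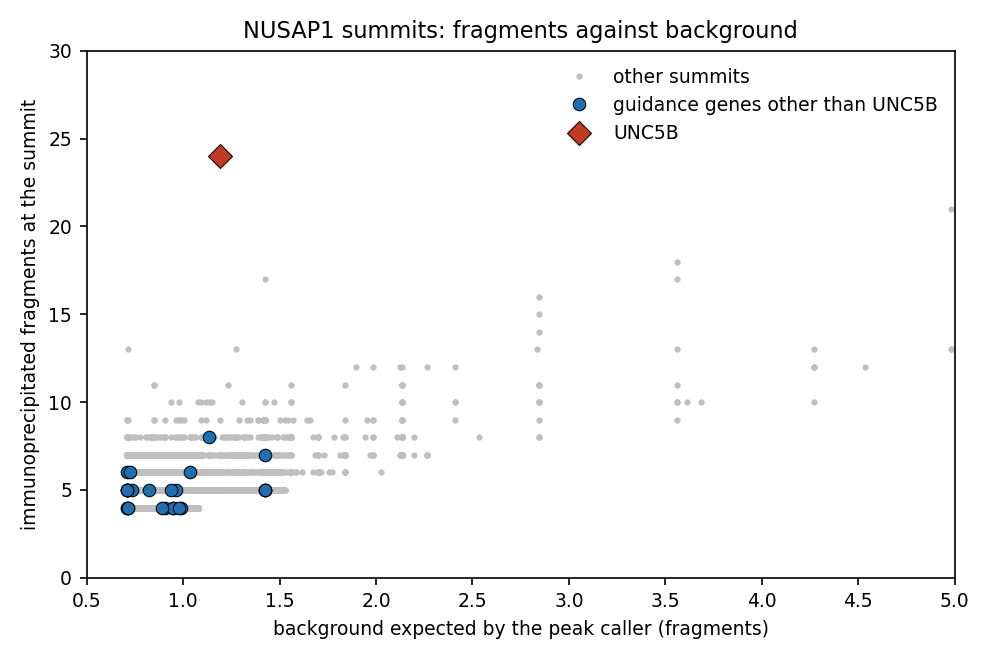
Each point is a summit of the NUSAP1 library on chromosomes 1 to 22 or X, placed by the background the peak caller expected and by its immunoprecipitated fragments; grey points are summits elsewhere, blue circles those at guidance genes, and the red diamond is UNC5B. UNC5B stands at 24 fragments, while the other guidance genes lie at 4 to 8 among the bulk of the list; summits with a background of 5 or more or with 30 or more fragments are beyond the axes.

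The remaining 28 summits at members were close in fragments and fold to the list as a whole. Their fragments had a median of 5, as did all summits at protein-coding genes, and their fold enrichments ran from 2.48 to 4.22 with a median of 3.08, against 3.01. The caller's q was 0.5 or more at 25 of the 28 (89.3%), against 84.1% of summits at protein-coding genes. The background was within 1% of the lowest value at 11 of them (39.3%), against 17.4%. At that lowest background 5 fragments give a fold of 3.51 with a q of 0.779, a pair of values that recurs below.

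Guidance genes were long, with a median length of 118 kb against 24.5 kb over all protein-coding genes. Over all protein-coding genes 15.6% had a summit, and over the members 16 of 52 did (30.8%, 95% Wilson interval 19.9 to 44.3, counting error only). The share rose with length in all genes: it was 5.16% under 10 kb, 8.19% from 10 to 30 kb, 17.2% from 30 to 100 kb, 35.9% from 100 to 300 kb, and 65.2% at 300 kb and over. Members had a summit in 0 of 1, 1 of 13, 3 of 11, 6 of 14 and 6 of 13 genes of these classes. Had each member carried the share of its class, 16.5 would have had a summit, a ratio of 0.969. The same interval, which treats the members as independent, gives 0.627 to 1.39 for this ratio. Without UNC5B the count was 15 of 51 against 16.3, a ratio of 0.918.

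**Figure D2:**
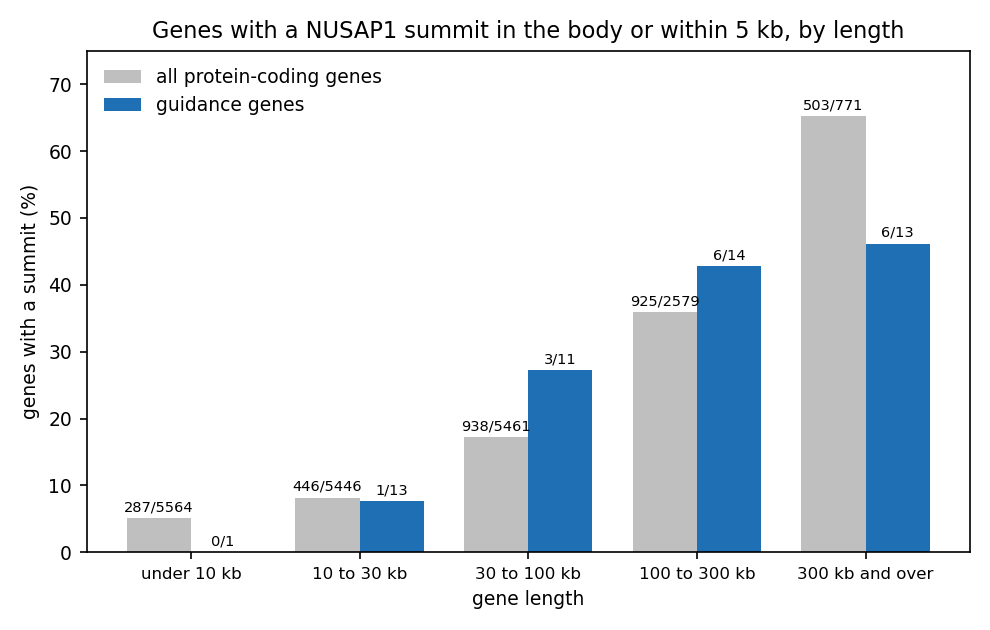
Bars show the percentage of genes with a NUSAP1 summit in the body or within 5 kb, for all protein-coding genes (grey) and the guidance genes (blue) in 5 classes of gene length, with the counts above each bar. Both rise with length; in the longest class 6 of 13 guidance genes had a summit, against 503 of 771 protein-coding genes.

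Summits of 7 or more fragments lay at 3 members, UNC5B, SEMA4B and SEMA4F, while 2.77% of protein-coding genes had one and the shares of the length classes add up to 3.12 genes. UNC5B was chosen for its peak, and without it 2 members had such a summit. Near the ends of genes, UNC5B alone had a summit within 1 kb, a position that 2.22% of protein-coding genes had. The second summit outside a gene body was the one at SEMA4B. The other 27 lay inside genes, all of them over 5 kb from both ends, at a median of 65.7 kb from the nearer end.

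RefSeq promoter windows of build GRCh38.p14, from 250 bp before to 50 bp after a transcription start, were at hand for 43 members, with 77 windows in all. None of these windows held a summit; over the protein-coding genes of the promoter table, 0.664% had one. UNC5B, UNC5D, NTN1, NTN3, NTNG2, SEMA3A, SEMA6A, SEMA6B and NRP1 were not in that table. The peak just before UNC5B is therefore not counted in these windows. Among the members in it, the summit nearest to a start of its own gene was at PLXNA2, 7.90 kb away. The gene table gives only the outer ends of a gene, so the start of a shorter transcript inside NTN1 or another gene missing from the promoter table would not be seen.

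Among the netrins, the founding ligand gene NTN1 (gene ID 9423, chromosome 17, 9003087 to 9244000) held 2 summits. The first, at 9021267, rested on 6 fragments over 1.03 (fold enrichment 3.44, q 0.779). The second, at 9035026, rested on 5 fragments over 0.935 (3.10, q 0.779). Both lay in the lower part of the gene, 18.2 and 31.9 kb from its lower end. The other ligand genes NTN3, NTN4, NTNG1 and NTNG2 had none; NTNG1 and NTNG2 encode membrane-anchored netrin-G proteins.

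Of the netrin receptors, NEO1 (chromosome 15, 73051692 to 73305206), which encodes neogenin, a receptor for netrins and repulsive guidance molecules, held 2 summits. They had 4 fragments over 0.712 (2.92, q 1) at 73063106 and 5 fragments over 1.42 (2.48, q 1) at 73121380. Neither passed the limit of 0.05. The attractive receptor gene DCC, the netrin-binding adhesion gene DSCAM, and UNC5A, UNC5C and UNC5D had no summit, so UNC5B was the sole member of its receptor family with one. The nearest summits lay 421 kb from UNC5A, 1568 kb from UNC5C and 2580 kb from UNC5D.

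RGMB, whose product is a repulsive guidance molecule and a co-receptor for bone morphogenetic proteins, is a short gene of 27.9 kb (chromosome 5, 98768632 to 98796494). It held a summit of 4 fragments over 0.892 at 98788042 (2.64, q 1). Its relative RGMA had none within 27.6 kb. Netrins, their receptors and the repulsive guidance molecules together had a summit at 4 of 14 genes, where the length classes give 5.16. That count includes UNC5B, which was chosen for its peak.

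Roundabouts carried the most summits of any members. ROBO2 (chromosome 3, 75906675 to 77649964), 1743 kb long, and ROBO1 (chromosome 3, 78597239 to 79767998), 1171 kb long, encode receptors for slits and held 5 summits each. At ROBO2 the fragments were 5 at 76077291, 5 at 76549488, 4 at 76588215, 5 at 76710349 and 4 at 77085128, with fold enrichments from 2.48 to 3.51 and q of 0.779 or 1. At ROBO1 they were 6 at 79314980, 4 at 79427012, 5 at 79457744, 4 at 79470678 and 5 at 79742198, with fold enrichments from 2.53 to 4.10. The lowest q in either gene was 0.418, at the summit of 6 fragments in ROBO1.

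Per length, ROBO2 held fewer summits than its surroundings and ROBO1 more, each by under 2. ROBO2 had 0.285 summits per 100 kb of window, and its flanks of 2.5 Mb on each side had 3.61 per Mb, a density that would give 6.32 summits over the window. ROBO1 had 0.423 per 100 kb, and its flanks had 2.61 per Mb, which would give 3.08. The flanks of each gene take in much or all of the other. The 18 summits in the flanks of ROBO2 include all those of ROBO1. The 13 in the flanks of ROBO1 include all those of ROBO2 but the lowest. Within ROBO1 the summits were uneven, with all 5 in the upper part of the gene. That part holds the start of its longest form, and the nearest of the summits lay 25.8 kb from that start.

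**Figure D3:**
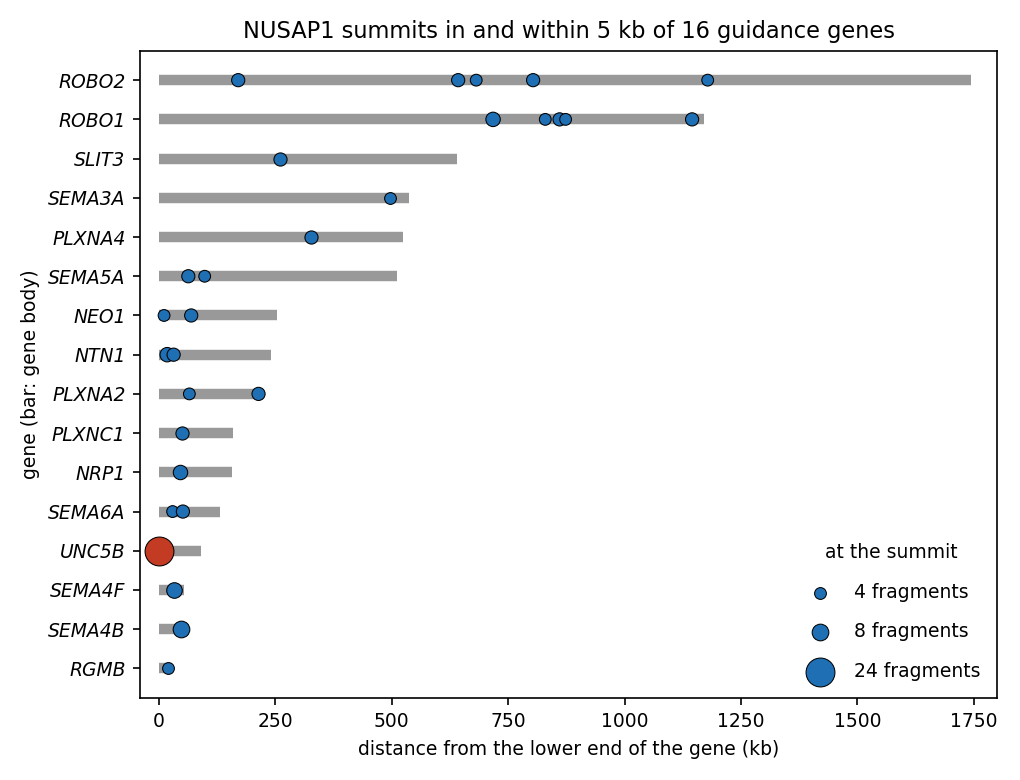
Grey bars are the bodies of the 16 guidance genes with a summit, drawn to scale from the lower end of each gene; circles are summits, with an area in proportion to the fragments at the summit (blue, and red for UNC5B). UNC5B has its summit at the end of the gene, SEMA4B has one just beyond its upper end, and the other summits lie inside the genes.

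The roundabout genes ROBO3 and ROBO4, 2 short neighbours on chromosome 11 (124865432 to 124881471 and 124883691 to 124897865), had no summit, although their flanks had the highest density of any members, 9.22 per Mb. The nearest summits were 21.7 and 39.9 kb away. Of the slits, SLIT3 (chromosome 5, 168661740 to 169301139) held 1 summit at 168921032, with 5 fragments at the lowest background (3.51, q 0.779). Its flanks had 6.81 summits per Mb, which would give 4.42 over its 649 kb of window. SLIT1 and SLIT2 had none, and the nearest summit to SLIT1 was 10.4 kb beyond its upper end. Slits and roundabouts together had a summit at 3 of 7 genes, where the length classes give 3.13.

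Semaphorin genes had a summit at 5 of 20, where their length classes give 5.37. SEMA4B, which encodes a membrane-bound semaphorin, had the best supported of them: 8 fragments over 1.13 at 90231854 of chromosome 15 (fold enrichment 4.22, p 3.08e-06, q 0.184). This was the second highest fold of the members, and it did not pass 0.05. The summit lay 2.19 kb beyond the upper end of SEMA4B (90184920 to 90229661) and inside CIB1 (90229975 to 90265759), a gene for a calcium- and integrin-binding protein, 2.09 kb from a CIB1 start.

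SEMA4F, a further membrane-bound semaphorin gene (chromosome 2, 74654247 to 74709411), held a summit at 74687611 with 7 fragments over 1.42 (3.30, q 0.779), the most fragments inside any member. SEMA5A (chromosome 5, 9035033 to 9546075) encodes a semaphorin with thrombospondin repeats. It held summits of 5 fragments at 9098550 (3.51, q 0.779) and 4 fragments at 9133638 (2.93, q 1), both at the lowest background. SEMA6A (chromosome 5, 116443555 to 116574823), whose product binds A-type plexins, held summits of 4 fragments over 0.712 at 116473322 (2.92, q 1) and 5 over 1.42 at 116495423 (2.48, q 1).

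SEMA3A encodes the secreted repellent that collapses growth cones, acting through neuropilin 1 and A-type plexins. It was the only one of the 7 class 3 genes with a summit, 4 fragments at the lowest background at 84452093 of chromosome 7 (2.93, q 1). SEMA3A is also the longest of these genes, at 537 kb (83955777 to 84492725). SEMA3B, SEMA3C, SEMA3D, SEMA3E, SEMA3F, SEMA3G, SEMA4A, SEMA4C, SEMA4D, SEMA4G, SEMA5B, SEMA6B, SEMA6C, SEMA6D and SEMA7A had none.

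Plexins and neuropilins, the semaphorin receptors, had a summit at 4 of 11 genes, where the length classes give 2.85. NRP1 (chromosome 10, 33177493 to 33334667), the co-receptor for secreted semaphorins and for vascular endothelial growth factor, held a summit of 6 fragments over 0.722 at 33222928 (4.06, p 1.09e-05, q 0.418). PLXNA2 (chromosome 1, 208022242 to 208244384) held 2, with 4 fragments over 0.949 at 208087977 (2.57, q 1) and 5 over 0.712 at 208236481 (3.51, q 0.779). PLXNA4 (chromosome 7, 132123340 to 132648688) held a summit of 5 fragments at the lowest background at 132449532 (3.51, q 0.779).

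PLXNC1, the receptor gene for SEMA7A (chromosome 12, 94148577 to 94307675), held a summit of 5 fragments over 0.821 at 94197992 (3.29, q 0.779). NRP2, PLXNA1, PLXNA3, PLXND1 and the B-type plexin genes PLXNB1, PLXNB2 and PLXNB3 had none. PLXNB1 was the member just outside the limit of 5 kb, with a summit 8.90 kb beyond its upper end, and SEMA4B was the member just inside it. Receptors as a whole had a summit at 8 of 22 genes (7.63 from the length classes) and ligands at 8 of 30 (8.88). Both counts lay within 1 gene of the value for their lengths, but the receptor count includes UNC5B, which was chosen for its peak.

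In the longest class, with 6 of 13 members against 65.2% of protein-coding genes, the length classes give 8.48. Members of this class held 1.15 summits each, against 1.94 over all genes of the class, or 1.57 per Mb of window against 3.36. In the class of 100 to 300 kb the members held more, 0.714 against 0.528. The 30 to 100 kb members held 0.273 against 0.201, but their 3 summits include that of UNC5B, which was chosen for its peak. That difference rests on UNC5B and is not read as an excess. The 7 members of 300 kb and over without a summit were DCC, DSCAM, SEMA6D, UNC5D, UNC5C, SLIT2 and NTNG1. DCC, at 1196 kb the second longest member, had its nearest summit 966 kb away, and DSCAM, at 836 kb, 248 kb away. For SEMA6D (590 kb) the distance was 312 kb. The nearest summit to NTNG1 was 1600 kb away.

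These genes lay in stretches with fewer summits. Their flanks had 0 to 2.20 summits per Mb with a median of 0.401, and the flanks of the 6 members of this class with a summit had 0.200 to 6.81 with a median of 2.61. In all 771 protein-coding genes of this length the medians were 0.802 without and 4.21 with a summit. The lowest value was at UNC5D, with 0 summits within 2.5 Mb of it on chromosome 8, and DCC had 1.40 per Mb. PLXNA4 and SEMA3A held a summit in surroundings as sparse, at 0.200 and 0.601 per Mb.

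**Figure D4:**
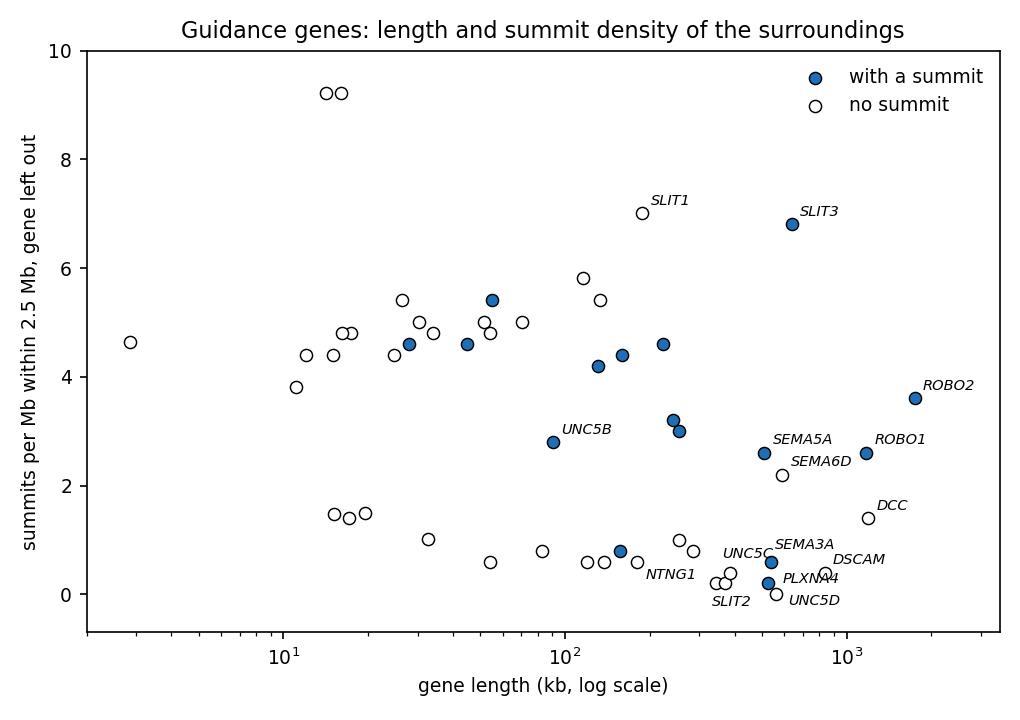
Each circle is 1 of the 52 guidance genes, placed by its length (log scale) and by the summits per Mb within 2.5 Mb on either side with the gene and its 5 kb flanks left out; filled circles have a summit and open circles do not. At 300 kb and over, 5 of the 7 open circles lie below 1 summit per Mb, and SLIT1 and the adjacent ROBO3 and ROBO4 lie among the highest densities without a summit.

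With the density of the flanks applied to each window, the 52 members would hold 31.3 summits, and 29 were found, a ratio of 0.927. The same ratio over all protein-coding genes was 0.979. For the members of 300 kb and over it was 0.778, with 15 summits where the flanks give 19.3. Over all protein-coding genes of that length it was 1.03. When the length classes were crossed with 3 classes of flank density, 14.9 members would have had a summit, against the 16 found (ratio 1.08). What sets the density of summits along the chromosomes was not tested here.

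Other guidance genes were counted in the same way in 3 further lists. Of 22 ephrins and Eph receptors, ligands and receptors of contact-mediated repulsion, 6 had a summit, where the length classes give 5.43. The highest folds among them were 3.76 at EPHB1 (q 0.433), 3.75 at EFNA5 (q 0.418) and 3.67 at EFNB3 (q 0.519). Of 45 effectors that act below guidance receptors, 10 had a summit (14.3 from the length classes), led by ABLIM1 with a fold enrichment of 3.73 (q 0.458), the exchange factor gene TRIO with 3.65 (q 0.433) and the slit-roundabout GTPase-activating gene SRGAP2 with 3.57 (q 0.664). Of 35 further guidance and adhesion genes, 16 had a summit (14.2 from the length classes), led by the teneurin gene TENM2 with 4.43 (q 0.146), ISLR2 with 4.39 (q 0.162) and LINGO1 with 4.26 (q 0.214). With the density of the flanks applied to each window, the ephrin list would hold 13.1 summits and held 23, the effectors 26.1 and held 20, and the further genes 54.0 and held 51. No gene of these 3 lists had a summit with q under 0.05, a limit that only 0.222% of all protein-coding genes passed.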

How the data were processed

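Chromatin of 1 NUSAP1 immunoprecipitate and 1 input library was sequenced; the submitters' processing notes list MACS2 2.1.0, Bowtie 1.1.2, Trimmomatic 0.33, bcl2fastq 2.17 and hg38. Settings are not given in the sources used here. The deposited list holds, per peak, a display score, the authors' fold enrichment at the summit as a ratio, −log10 p and −log10 q, and, as an other deposited value, the summit offset in bp. Read depth was not part of the list.

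Fragments and background at each summit were computed by taking the fold as (fragments + 1) divided by (background + 1) and seeking the whole number of fragments whose Poisson tail matches −log10 p within 0.001. All 9043 summits were matched. A closest match was taken where 2 numbers fitted (153 summits, none at a member). These numbers rest on that reading of the columns and are not counts given by the authors.

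Gene bodies came from RefSeq for GRCh38.p14. Entries that the table lists on sequences other than the assembled chromosomes (679) were left out. A gene was called when a summit lay in its body or within 5 kb. Length-class sums add, over the members, the share of all protein-coding genes of the class with a summit. Flank density excludes the gene and 5 kb on each side. No test was made, since there is 1 library; intervals cover counting error only.

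Every member with a summit was named, with the longest members without one, the nearest outside 5 kb, and the 3 genes of highest fold per further list. Other members without a summit are named to account for them. The members and lists were chosen with earlier results of these data known. The planned motif search was not run: UNC5B, with a summit just before the gene, had no promoter window, and no window of another member held a summit. Scripts were tested on simulated data. Tools were scipy 1.17.1, pandas 2.3.3, matplotlib 3.10.9 and numpy 2.4.6 under Python 3.11.15.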

Additional observations from a re-analysis of the deposited data

How the results depend on the processing

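The count of 16 members ranged from 14 to 17 with the gene body alone, windows of 1 and 10 kb, any overlap of the peak, summits of low background, or UNC5B left out. Stricter limits keep fewer summits by construction: 1 member was left at q under 0.05, and 3 members with 3 summits at 7 or more fragments. The 29 summits became 27 in gene bodies alone and 28 without UNC5B, and stayed 29 with summits within 1 kb merged. The ratio to genes of similar length ran from 0.908 to 1.08 over 9 alternatives. Leaving out UNC5B, splitting the longest class at 600 kb and the low-background limit for summits were chosen after seeing the data. With 5 kb in place of 1 kb, 2 members had a summit at a gene end, SEMA4B beside UNC5B. No paired analysis was possible because there is 1 immunoprecipitate. The low number of fragments limits what single summits can show.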

Other observations

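Of the 23 summits at ephrins and Eph receptors, 13 lay at 1 gene, EPHB1, which encodes a receptor for membrane-bound B-type ephrins. The flank densities give 13.1 summits for that list of genes, a ratio of 1.76, against 0.927 for the netrin, slit and semaphorin genes; this difference was not tested. EPHB1 is 465 kb long, and its highest fold enrichment, at 135216562 of chromosome 3, rested on 6 fragments (q 0.433). No guidance gene of the netrin, slit and semaphorin families had more than 5 summits. Among the further adhesion genes, TENM4 held 12 summits in 788 kb, with a highest fold enrichment of 4.13 (q 0.305), and TENM2 held 10 in 1285 kb. EPHB1 and TENM4 were singled out after their values were seen.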
